A study of Homo sapiens with 9 samples.

Results

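Transcripts of 9 enzymes of the tricarboxylic acid cycle were followed in the human PANC1 line of pancreatic ductal adenocarcinoma: CS, IDH3A, IDH3B, IDH3G, OGDH, DLST, SUCLA2, FH and MDH2. They were chosen by name, as mitochondrial enzymes that carry acetyl groups around the cycle. All 9 were in the table of 60612 genes, and all 9 were among the 12545 genes tested, which had an FPKM (fragments per kilobase, also divided by library size) of at least 1 in at least 3 libraries. PolyA-selected RNA was sequenced from 3 libraries of wild-type cells with no treatment (control), 3 of cells that received a flag-NUSAP1 plasmid (overexpression) and 3 of cells transfected with siRNA against NUSAP1 (knockdown). The labels name no empty plasmid and no control siRNA, so in both comparisons against control the transfection and the change in NUSAP1 cannot be told apart. NUSAP1 encodes a spindle protein that binds microtubules during mitosis, and the title of the series ties it to LDHA, glycolysis and lactate. What the cycle transcripts did in the same cells is the question addressed here.

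The cycle runs in the mitochondrial matrix. Citrate synthase (CS) joins acetyl-CoA to oxaloacetate, a pair of oxidative decarboxylations follows at isocitrate dehydrogenase and the oxoglutarate dehydrogenase complex, and succinyl-CoA ligase, succinate dehydrogenase, fumarase and malate dehydrogenase bring the carbon back to oxaloacetate. The reactions pass electrons to NAD and ubiquinone for the respiratory chain, and citrate, oxoglutarate and oxaloacetate leave the cycle for lipid and amino acid synthesis. Carcinoma cells with high lactate output often keep the cycle running, with glutamine as one of its carbon sources.

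The libraries held 57115172 to 73386227 counts each. NUSAP1 FPKM was 30.9, 34.0 and 42.1 in control, 13325, 13792 and 12910 in overexpression and 12.0, 13.8 and 11.6 in knockdown, so every library followed its label. With edgeR, 6702 of the 12545 tested genes (53.4%) differed between overexpression and control, 1813 (14.5%) between knockdown and control and 6270 (50.0%) between overexpression and knockdown, at a Benjamini-Hochberg adjusted p below 0.05. Of the genes called in the first of these, 51.3% were higher, and in the second 48.6%. On TPM (FPKM rescaled to one total in every library) these shares were 63.9% and 75.9%, since that scaling moved the median of all genes up by 0.141 and 0.125 on the log2 scale. Epithelial keratins and EPCAM (4 of 5 at an FPKM of 1 or more) summed to 93.5 to 125 FPKM in control, 130 to 159 in overexpression and 118 to 125 in knockdown, with overexpression above control in every library. Fibroblast markers (1 of 4 at 1 or more) summed to 17.2 to 18.5, 8.24 to 8.84 and 10.8 to 11.9, highest in control, and leukocyte markers (1 of 3) to 1.54 to 3.69, 0.0851 to 3.00 and 0. Acinar, endocrine and endothelial markers stayed at or near 0. Hepatocyte transcripts (13 markers, 5 of them at an FPKM of 1 or more in any library) summed to 18.5 to 27.3 FPKM in control 2, control 3, overexpression 1 and overexpression 3, and to 0.148 to 0.683 in the other 5 libraries. The share of counts from mitochondrially encoded genes was 10.1% to 14.0% in control, 6.82% to 8.11% in overexpression and 8.21% to 9.71% in knockdown. The part of these markers and of this share in the results was not tested, apart from a fit without the 4 libraries with hepatocyte transcripts. That fit left 1 control and 1 overexpression library, so it cannot decide the part of these transcripts.

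The cycle enzymes differed widely in level, and most were among the more abundant transcripts of the cells. In control, MDH2 had a mean FPKM of 72.8 ± 5.54 (SD, n = 3 here and below), higher than 96.6% of tested genes. OGDH followed at 37.5 ± 3.51 and FH at 36.0 ± 2.51, whose libraries overlapped. IDH3G at 31.4 ± 2.14, CS at 30.1 ± 2.02 and IDH3B at 27.6 ± 1.39 came next, each overlapping its neighbour in this order. DLST stood at 17.5 ± 5.94, with no control library reaching the lowest one of IDH3B. IDH3A at 5.88 ± 0.252 and SUCLA2 at 3.07 ± 0.0596 were the lowest, the latter above only 34.5% of tested genes. The low place of SUCLA2 rests partly on the length used: its counts and FPKM imply 10590 bases, against 2192 bases in its principal transcript in GENCODE 29. Scaled by principal transcripts, MDH2 stayed first and DLST the seventh, while CS moved from rank 5 to rank 2, SUCLA2 from 9 to 8 and IDH3A from 8 to 9.

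Taken over the 9 enzymes, FPKM summed to 256.5, 257.0 and 272.1 in control, 226.7, 206.3 and 225.4 in overexpression and 281.7, 263.9 and 286.2 in knockdown. The overexpression libraries lay below all others in this sum, and the knockdown libraries overlapped control. NUSAP1 itself took 5.63% to 5.998% of the counts in overexpression, which enters the scaling of FPKM there. The fold changes below are edgeR values on counts with TMM scaling, so they can differ from ratios of FPKM.

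**Figure D1:**
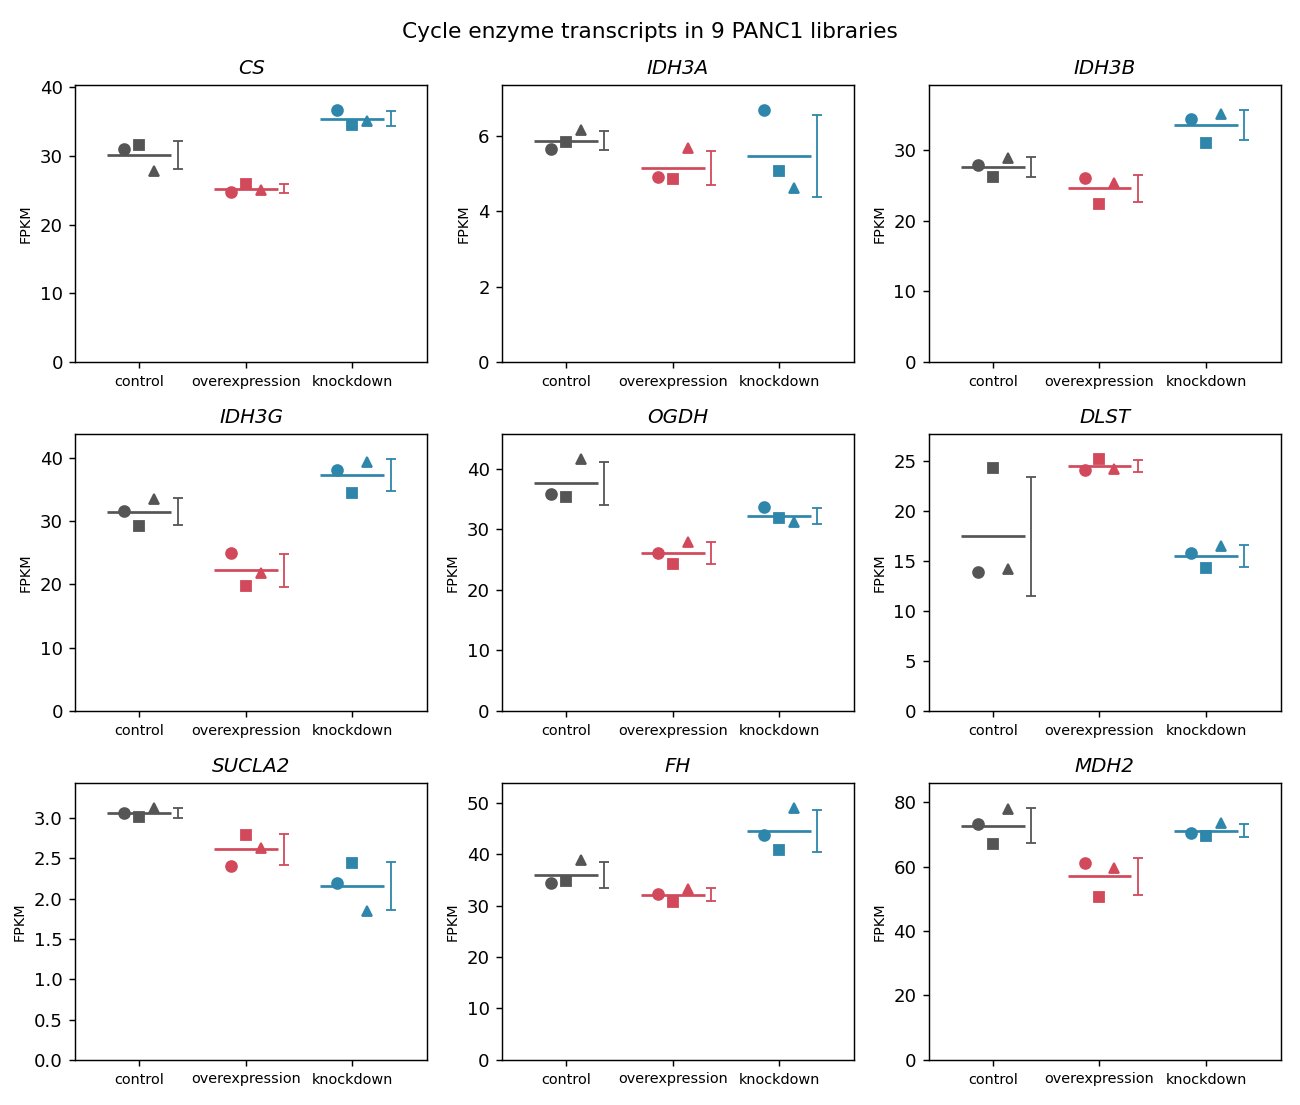
FPKM of each of the 9 cycle enzymes in each library (circles, squares and triangles are replicates 1, 2 and 3), with the group mean as a line and the SD as a bar beside it, n = 3. Overexpression points lie below control for 7 enzymes, and DLST of control 2 lies at the level of overexpression. The group mean of SUCLA2 is lowest in knockdown, whose points overlap overexpression.

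The promoters of 6 of the enzymes are shown because these are the genes that differed between overexpression and knockdown: CS, IDH3B, IDH3G and FH were lower in overexpression, and DLST and SUCLA2 were higher. The sequences are RefSeq windows of GRCh38.p14, from 250 bases before to 50 bases after a gene start, 5′ to 3′ on the gene's strand, and 8 of the 9 enzymes had one. Capitals mark matches, on either strand, to CCGGAAG (the core bound by ETS factors such as GABP), CCAAT (NF-Y) or NAAGGTCA (ERR), none of which overlapped another.

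CS, chr12:56300281-56300580, minus strand, 2 CCAAT matches:
CS: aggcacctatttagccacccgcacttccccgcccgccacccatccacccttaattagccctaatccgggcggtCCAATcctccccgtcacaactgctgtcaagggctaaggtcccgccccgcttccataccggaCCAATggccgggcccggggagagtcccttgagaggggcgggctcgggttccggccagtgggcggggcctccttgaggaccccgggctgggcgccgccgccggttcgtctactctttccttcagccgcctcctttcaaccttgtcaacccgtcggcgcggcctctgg
IDH3B, chr20:2664167-2664466, minus strand, 1 CCGGAAG match:
IDH3B: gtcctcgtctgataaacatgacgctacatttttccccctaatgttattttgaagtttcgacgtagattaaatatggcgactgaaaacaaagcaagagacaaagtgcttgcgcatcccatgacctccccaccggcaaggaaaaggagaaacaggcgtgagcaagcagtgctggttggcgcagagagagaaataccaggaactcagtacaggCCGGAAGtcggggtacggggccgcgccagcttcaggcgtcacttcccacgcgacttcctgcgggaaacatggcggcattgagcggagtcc
IDH3G, chrX:153794326-153794625, minus strand, 1 CCAAT and 1 CCGGAAG match:
IDH3G: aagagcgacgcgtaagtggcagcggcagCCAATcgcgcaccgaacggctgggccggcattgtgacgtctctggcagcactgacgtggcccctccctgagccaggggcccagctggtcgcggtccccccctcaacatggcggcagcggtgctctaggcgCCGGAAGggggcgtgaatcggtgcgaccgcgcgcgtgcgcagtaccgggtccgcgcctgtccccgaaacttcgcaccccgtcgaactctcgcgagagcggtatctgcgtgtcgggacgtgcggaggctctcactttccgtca
FH, chr1:241519706-241520005, minus strand, 2 CCAAT matches, both on the opposite strand:
FH: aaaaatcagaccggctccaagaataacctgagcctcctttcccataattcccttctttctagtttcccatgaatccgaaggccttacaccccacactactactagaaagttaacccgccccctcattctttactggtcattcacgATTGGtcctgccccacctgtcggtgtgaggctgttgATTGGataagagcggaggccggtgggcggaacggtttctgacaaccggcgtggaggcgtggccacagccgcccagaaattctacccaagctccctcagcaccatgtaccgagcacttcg
DLST, chr14:74881666-74881965, plus strand, 1 CCGGAAG match on the opposite strand:
DLST: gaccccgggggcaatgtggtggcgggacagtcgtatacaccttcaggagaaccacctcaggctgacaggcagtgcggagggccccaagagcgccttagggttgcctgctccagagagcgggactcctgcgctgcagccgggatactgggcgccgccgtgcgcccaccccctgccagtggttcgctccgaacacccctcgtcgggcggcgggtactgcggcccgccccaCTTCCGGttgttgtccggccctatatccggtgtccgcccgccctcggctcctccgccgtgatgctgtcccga
SUCLA2, chr13:48001224-48001523, minus strand, 1 CCAAT match on the opposite strand and 1 NAAGGTCA match:
SUCLA2: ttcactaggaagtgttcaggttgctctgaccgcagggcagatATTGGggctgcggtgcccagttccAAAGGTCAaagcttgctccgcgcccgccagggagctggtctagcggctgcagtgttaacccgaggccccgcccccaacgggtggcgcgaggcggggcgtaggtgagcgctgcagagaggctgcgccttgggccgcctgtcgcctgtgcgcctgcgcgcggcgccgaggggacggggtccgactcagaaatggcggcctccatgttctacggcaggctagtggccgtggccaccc

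CCGGAAG was found in 4 of the 8 windows (IDH3B, IDH3G, DLST and MDH2), against 10.3% of 35116 RefSeq promoters of the same length. CCAAT was found in 4 of 8 (CS, IDH3G, FH and SUCLA2), against 34.6%, and NAAGGTCA in 1 of 8, against 3.9%. GCATGCGC (NRF1, 3.05% of all promoters) and AAGATGGC (YY1, 2.89%) were in none of the 8 windows. Of the 4 enzymes with CCGGAAG, IDH3B and IDH3G were lower in overexpression than in knockdown, DLST was higher and MDH2 was not called. A link between these matches and the direction of change was not tested. G and C made up 53.3% of the IDH3B window and 54.0% of the FH window, and 67.3% to 69.7% of the other 4 printed.

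After NUSAP1 overexpression, the transcripts of OGDH, IDH3G and MDH2 fell and that of DLST rose in the main edgeR fit. Of 23 alternatives, these calls held in 21 for OGDH, 22 for IDH3G, 13 for MDH2 and 14 for DLST. NUSAP1 itself rose by 8.63 ± 0.15 on the log2 scale (edgeR adjusted p = 1.31e-08). Of the 9 enzymes, 3 were lower and 1 was higher, and 44.4% were called in either direction, against 53.4% of all tested genes (26.0% lower and 27.4% higher). The list was thus called no more often than the background. The median log2 fold change of the 9 was -0.15, against -0.0037 over all tested genes, and it was 0.0015 on TPM. In FPKM, 7 enzymes lay in every overexpression library below every control library and none lay above, where 34.9% and 27.8% of all tested genes did so. In bulk RNA, fewer cells of a type and less RNA per cell cannot be told apart.

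CS, the enzyme that opens the cycle (ENSG00000062485, chr12:56271699-56300391, minus strand, positions as deposited here and below), had an FPKM of 31.0, 31.6 and 27.8 in control and 24.7, 25.9 and 25.0 in overexpression. The groups did not overlap. The log2 fold change was -0.18 ± 0.07 (SE) with an edgeR adjusted p of 0.0766, which missed the threshold, and the value passed in 8 of 23 alternatives (adjusted p 0.0105 to 0.869).

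IDH3A, IDH3B and IDH3G encode the subunits of NAD-dependent isocitrate dehydrogenase, in which the alpha subunit (IDH3A) holds the catalytic site and the beta and gamma subunits complete and regulate the enzyme. IDH3G (ENSG00000067829, chrX:153785766-153794523, minus strand) gave 31.6, 29.2 and 33.5 FPKM in control and 25.0, 19.8 and 21.8 in overexpression. All overexpression libraries were lower. Its fall of 25.4% (log2 fold change -0.42 ± 0.11, edgeR adjusted p = 0.0126) passed in 22 of 23 alternatives. It missed the threshold without the 4 libraries that held hepatocyte transcripts, at -0.66 with an adjusted p of 0.0684, a fit with 1 control and 1 overexpression library. The locus shares 1008 bases with SSR4 on the opposite strand, and no source used here says if reads were counted by strand. SSR4 gave 13.3 to 17.4 FPKM in control and 14.3 to 16.5 in overexpression, and was not called (0.14 ± 0.12, adjusted p = 0.382). In knockdown it gave 16.7 to 19.8 FPKM and was not called against control either (0.28 ± 0.12, edgeR adjusted p = 0.176), with the same sign as IDH3G there.

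IDH3B (ENSG00000101365, chr20:2658395-2664219, minus strand) had 27.9, 26.1 and 28.9 FPKM in control and 26.0, 22.4 and 25.3 in overexpression. The groups lay close without overlapping, and the log2 fold change of -0.09 ± 0.09 was not called (edgeR adjusted p = 0.458). IDH3A (ENSG00000166411, chr15:78131498-78171255, plus strand) had 5.65, 5.83 and 6.15 FPKM in control and 4.92, 4.85 and 5.68 in overexpression, which overlapped (-0.11 ± 0.13, adjusted p = 0.503). The 3 subunits of one enzyme thus did not pass together. The FPKM ratio of IDH3G to IDH3B, which does not depend on library scaling, stood at 1.13, 1.12 and 1.16 in control and at 0.961, 0.883 and 0.862 in overexpression. Every overexpression library was below every control library in this ratio.

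OGDH encodes the substrate-binding first component of the oxoglutarate dehydrogenase complex, and DLST its lipoate-carrying second component, which forms the core. OGDH (ENSG00000105953, chr7:44606572-44709066, plus strand) had 35.8, 35.3 and 41.6 FPKM in control and 26.0, 24.2 and 27.9 in overexpression. The groups were well apart. OGDH fell by 26.7% (log2 fold change -0.45 ± 0.08, edgeR adjusted p = 0.00212), the smallest adjusted p of the 9 enzymes in this comparison, and missed the threshold in 2 of 23 alternatives, TPM (0.0528) and the fit without the hepatocyte-transcript libraries (0.0539).

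DLST (ENSG00000119689, chr14:74881891-74902551, plus strand) had 13.9, 24.3 and 14.2 FPKM in control and 24.1, 25.2 and 24.2 in overexpression. Control 2 stood at the level of overexpression, so the groups overlapped, while the other 2 control libraries were far below. DLST rose by 48.9% (log2 fold change 0.57 ± 0.20, edgeR adjusted p = 0.0357). Without control 2 the value was 0.87 with an adjusted p of 0.000447. It missed the threshold without control 1 (0.42, adjusted p = 0.123), control 3 (0.43, 0.118), overexpression 1 (0.0742), overexpression 2 (0.0863), overexpression 3 (0.0687) or knockdown 1 (0.0525), and it passed in 14 of 23 alternatives in all. A processed copy, DLSTP1, had 18 to 119 counts per library, highest in overexpression 2.

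Within the complex the ratio of DLST to OGDH in FPKM stood at 0.387, 0.689 and 0.342 in control and at 0.927, 1.04 and 0.867 in overexpression. Every overexpression library was above every control library, control 2 included. In knockdown the ratio was 0.470, 0.448 and 0.530, inside the range of control. The 2 components of the complex thus moved apart in overexpression, and each was called in its own direction.

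**Figure D2:**
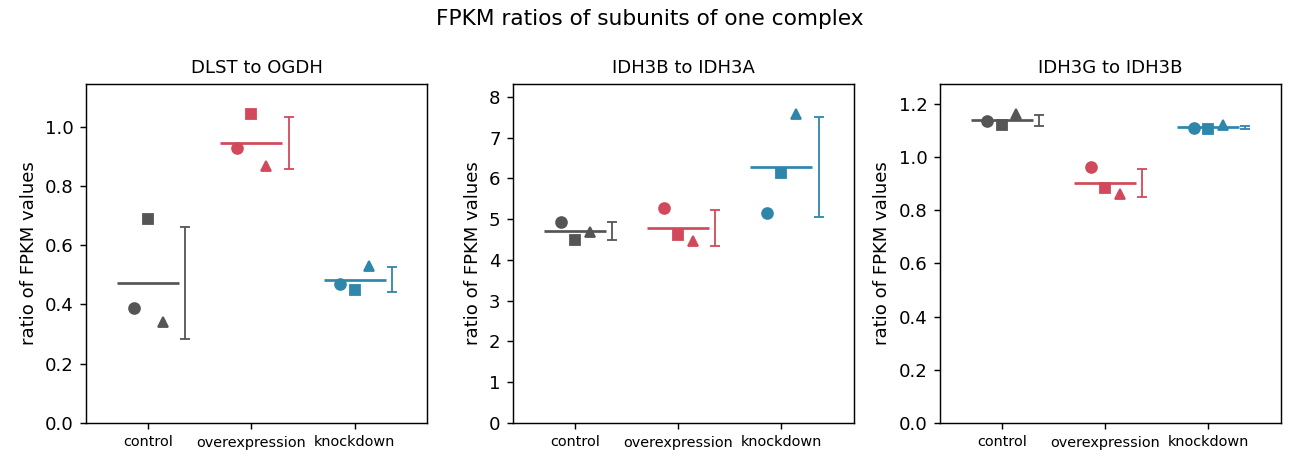
Ratios of deposited FPKM within each library for DLST to OGDH, IDH3B to IDH3A and IDH3G to IDH3B, with points for replicates 1, 2 and 3 (circle, square, triangle), group means as lines and the SD as a bar, n = 3. The DLST to OGDH ratio is 0.867 to 1.04 in overexpression, above every other library, and the IDH3G to IDH3B ratio is below 1 only in overexpression.

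SUCLA2 encodes the ADP-forming beta subunit of succinyl-CoA ligase, the step that makes a nucleoside triphosphate directly. SUCLA2 (ENSG00000136143, chr13:47745736-48037968, minus strand) had 3.07, 3.01 and 3.13 FPKM in control and 2.41, 2.80 and 2.63 in overexpression, without overlap, and was not called (-0.15 ± 0.10, edgeR adjusted p = 0.251). The RefSeq start used for its promoter lies inside this deposited span.

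FH encodes fumarase, a tumour suppressor of hereditary leiomyomatosis and renal cell cancer, and MDH2 the malate dehydrogenase that closes the cycle. FH (ENSG00000091483, chr1:241497603-241519755, minus strand) had 34.3, 34.7 and 38.8 FPKM in control and 32.4, 30.7 and 33.3 in overexpression, just below control, and was not called (-0.08 ± 0.10, edgeR adjusted p = 0.529). MDH2 (ENSG00000146701, chr7:76048051-76067506, plus strand) had 73.4, 66.9 and 78.0 FPKM in control and 61.3, 50.5 and 59.5 in overexpression. The MDH2 groups did not overlap. MDH2 fell by 17.1% (-0.27 ± 0.10, edgeR adjusted p = 0.0451), close to the threshold, and passed in 13 of 23 alternatives (adjusted p 0.00379 to 0.311). It missed the threshold without control 1 (0.0955), control 3 (0.132), overexpression 2 (0.138), overexpression 3 (0.0786), knockdown 1 (0.0656) or knockdown 2 (0.0518).

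**Figure D3:**
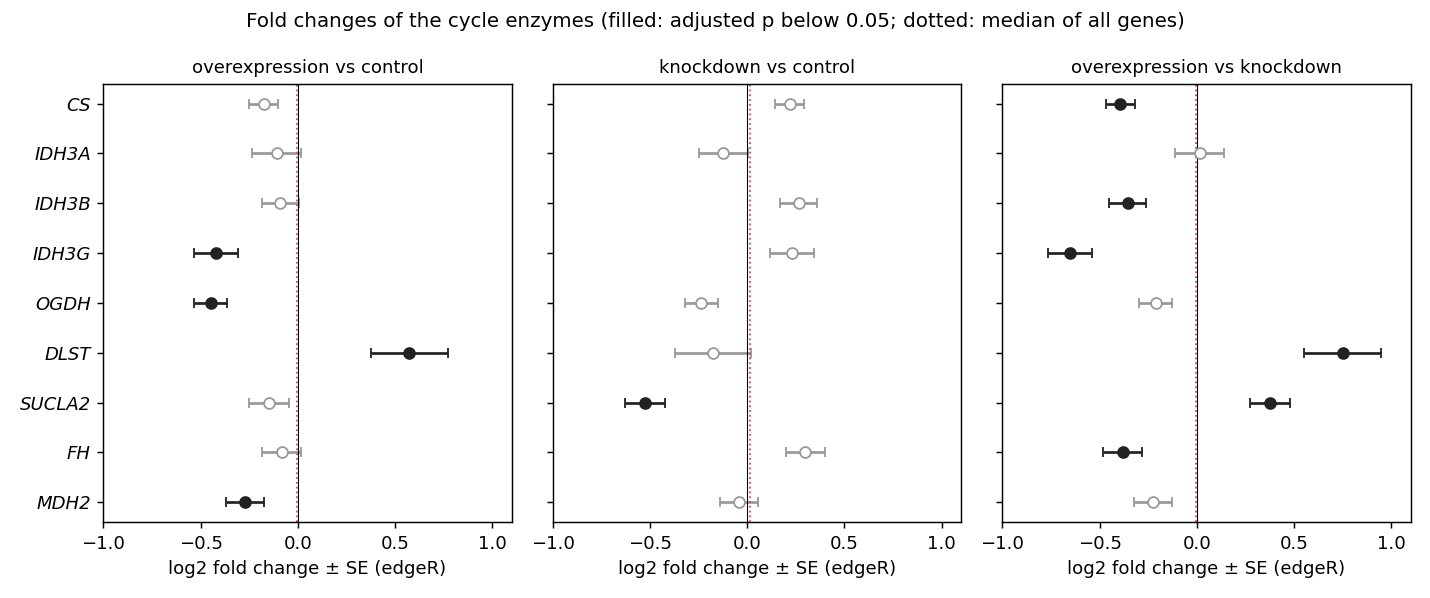
Log2 fold change ± SE (edgeR without pairing) of the 9 enzymes in the 3 comparisons, with filled points at an adjusted p below 0.05 and a dotted line at the median of all tested genes. Filled are OGDH, IDH3G, MDH2 (lower) and DLST (higher) in overexpression against control, SUCLA2 (lower) in knockdown against control, and CS, IDH3B, IDH3G, FH (lower), DLST and SUCLA2 (higher) in overexpression against knockdown.

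After NUSAP1 knockdown, which lowered NUSAP1 by 1.53 ± 0.11 on the log2 scale (log2 fold change -1.53), SUCLA2 was the only one of the 9 enzymes that fell in the edgeR fit without pairing, and none rose. This single call is 11.1% of the enzymes, against 14.5% of all tested genes called in either direction (7.43% lower and 7.02% higher). With replicates paired as a replicate block among all 3 groups, 4 enzymes were called, SUCLA2 and OGDH (adjusted p = 0.0491) lower and IDH3B (0.0324) and FH (0.039) higher, and with the block among these 2 groups only, none was. At an unadjusted p below 0.05 edgeR without pairing gave 3 higher and 2 lower, and DESeq2 and limma on log2(FPKM + 1) each called 2 higher and 1 lower. The median log2 fold change of the 9 was -0.04, against 0.016 over all tested genes, and was above 0 on TPM (0.096), with a filter of FPKM 5 (0.0781), without control 2 (0.121) and without the hepatocyte-transcript libraries (0.0976). In FPKM, CS, IDH3B, IDH3G and FH lay in every knockdown library above every control library, and OGDH and SUCLA2 below, where 19.3% and 16.5% of all tested genes did so.

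SUCLA2 had 2.19, 2.44 and 1.84 FPKM in knockdown, all below the 3.01 to 3.13 of control, and fell by 30.6% (log2 fold change -0.53 ± 0.10, edgeR adjusted p = 0.0124). Each fit that left out 1 library kept the call (0.014 to 0.0471). It was lost on TPM (0.126), when only control and knockdown were fitted and replicates were paired as blocks (0.0516) and without control 2 and 3 and overexpression 1 and 3 (0.27). The other subunits of succinyl-CoA ligase moved in both directions. SUCLG2, the GTP-forming beta subunit, fell from 11.7, 12.8 and 12.3 FPKM to 7.22, 8.72 and 8.65 (-0.59 ± 0.10, adjusted p = 0.00633). SUCLG1, the alpha subunit shared by both forms, rose from 17.8, 16.8 and 19.8 FPKM to 29.04, 22.4 and 29.4 (0.56 ± 0.14, adjusted p = 0.0367). The FPKM ratio of SUCLG1 to SUCLA2 was 5.81, 5.59 and 6.33 in control and 13.3, 9.19 and 15.9 in knockdown, without overlap, while that of SUCLG2 to SUCLA2 was 3.996 ± 0.226 and 3.86 ± 0.741.

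CS had 36.7, 34.5 and 35.1 FPKM in knockdown, above control in every library, with a log2 fold change of 0.22 ± 0.07 (edgeR adjusted p = 0.0886). FH had 43.8, 40.9 and 49.0 FPKM, also above control (0.30 ± 0.10, adjusted p = 0.0858). Neither passed in the edgeR fit without pairing. FH passed in 9 of 23 alternatives, among them the replicate block over all 3 groups (edgeR adjusted p = 0.039), and CS passed in 5. IDH3B had 34.4, 31.0 and 35.1 FPKM (0.26 ± 0.09, adjusted p = 0.101) and IDH3G 38.1, 34.3 and 39.2 (0.23 ± 0.11, adjusted p = 0.217), again above control in every library and not called without pairing. With the replicate block over all 3 groups IDH3B passed (edgeR adjusted p = 0.0324) and IDH3G did not (0.0927). IDH3A was not above control in every library, at 6.68, 5.07 and 4.63 FPKM around the control values (-0.12 ± 0.13, adjusted p = 0.579). The IDH3B to IDH3A ratio was 4.93, 4.48 and 4.69 in control and 5.14, 6.13 and 7.57 in knockdown.

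OGDH had 33.6, 31.9 and 31.1 FPKM in knockdown, below every control library (-0.24 ± 0.08, edgeR adjusted p = 0.0973), which was not called without pairing. With the replicate block over all 3 groups it passed (edgeR adjusted p = 0.0491). DLST had 15.8, 14.3 and 16.5 FPKM, inside the range of control (-0.18 ± 0.20, adjusted p = 0.612), and its direction turned without control 2 (0.12). MDH2 had 70.6, 69.5 and 73.6 FPKM, overlapping control (-0.04 ± 0.10, adjusted p = 0.815).

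Overexpression against knockdown compares groups that were both transfected, though with a plasmid in one and siRNA in the other. CS, IDH3B, IDH3G and FH were lower in overexpression and DLST and SUCLA2 higher, which is 66.7% of the 9 enzymes, against 50.0% of all tested genes (24.5% lower and 25.5% higher). The median log2 fold change of the 9 was -0.23, against -0.0056 over all tested genes, and it stayed below 0 in every alternative, at -0.364 to -0.17. In FPKM, 6 enzymes lay in every overexpression library below every knockdown library and 1 above, where 35.0% and 25.1% of all tested genes did so. This comparison shares its libraries with both comparisons above and is no separate evidence.

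IDH3G showed the largest fall among the 9, with 22.2 ± 2.62 FPKM in overexpression and 37.2 ± 2.56 in knockdown (log2 fold change -0.65 ± 0.11, edgeR adjusted p = 0.00151), and passed in all 23 alternatives. SSR4, which shares part of the IDH3G locus, was also lower in every overexpression library and was not called (-0.14 ± 0.12, edgeR adjusted p = 0.3725). The part of this overlap in the IDH3G counts was not tested. CS fell from 35.4 ± 1.13 to 25.2 ± 0.626 FPKM (-0.39 ± 0.07, adjusted p = 0.00245), FH from 44.5 ± 4.14 to 32.1 ± 1.32 (-0.38 ± 0.10, adjusted p = 0.0132) and IDH3B from 33.5 ± 2.14 to 24.6 ± 1.93 (-0.35 ± 0.09, adjusted p = 0.0137). None of these 4 enzymes overlapped between the groups. CS, FH and IDH3B each passed in 22 of 23 alternatives, and missed only without the hepatocyte-transcript libraries (0.0727, 0.118 and 0.0695), where 1 overexpression library was left.

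DLST was higher in overexpression than in knockdown without overlap, at 24.5 ± 0.612 and 15.5 ± 1.12 FPKM (0.75 ± 0.20, edgeR adjusted p = 0.0124), and passed in all 23 alternatives. Its adjusted p was 0.000441 to 0.0424 with 1 library left out. SUCLA2 was higher too (2.61 ± 0.193 and 2.16 ± 0.299 FPKM, 0.38 ± 0.10, adjusted p = 0.0147), but overexpression 1 at 2.41 FPKM lay below knockdown 2 at 2.44, and the call was lost without overexpression 2 (0.0518) and in 5 other alternatives. OGDH (-0.21 ± 0.08, adjusted p = 0.0649) and MDH2 (-0.23 ± 0.10, adjusted p = 0.0877) were below knockdown in every overexpression library and were not called. Each of these 2 passed in 6 of 23 alternatives. IDH3A overlapped, at 0.01 ± 0.13 (adjusted p = 0.934).

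**Figure D4:**
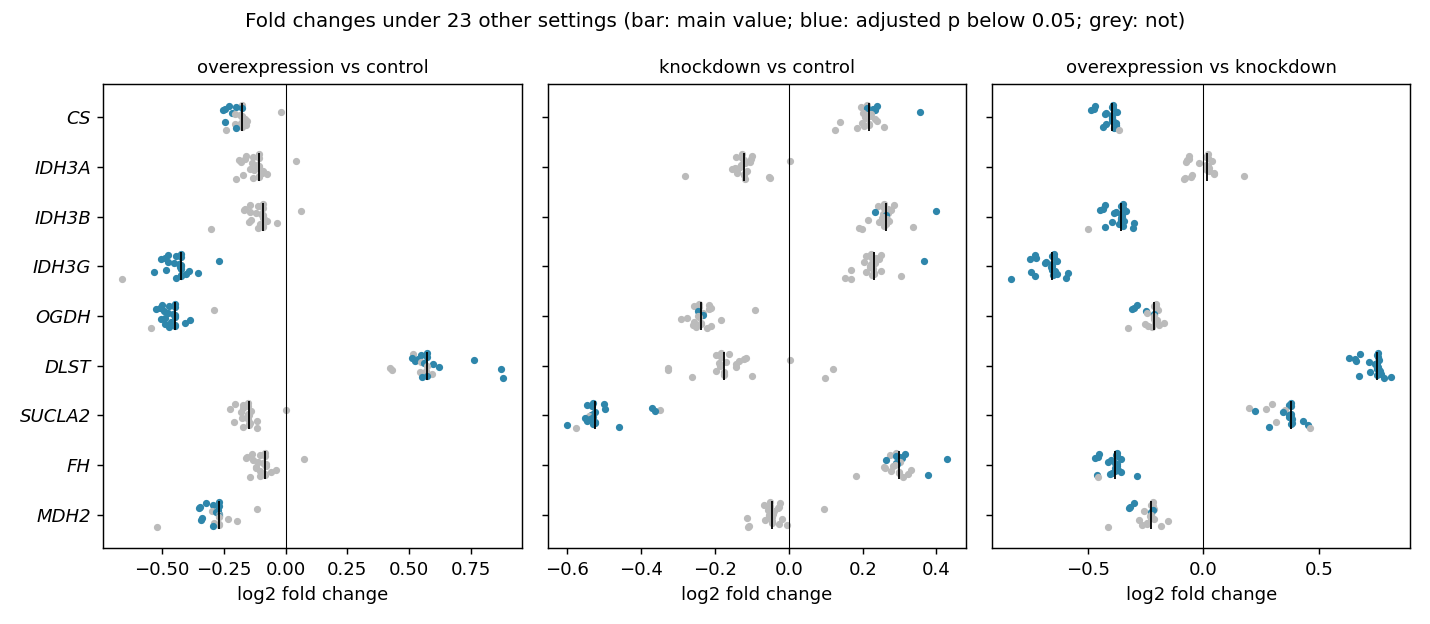
Log2 fold changes of the 9 enzymes under the 23 alternatives (22 for SUCLA2, which a filter of FPKM 5 removed), one point each, blue at an adjusted p below 0.05 and grey otherwise, with a bar at the value of the edgeR fit. DLST in overexpression against control spreads from 0.42 to 0.88, and IDH3G and DLST in overexpression against knockdown are blue throughout.

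The genes around these enzymes were taken from lists by role, and each count is given beside the share of all tested genes called in either direction, which was 53.4% in overexpression against control, 14.5% in knockdown against control and 50.0% between them. Among the other enzymes of the cycle, 9 of 10 were tested, and in overexpression 4 were lower and 0 higher than control (44.4%, under the 53.4% of all genes, median -0.23, 1 higher at an unadjusted p below 0.05, none with DESeq2). The largest fall in this list was that of IDH2, the NADP-dependent mitochondrial isocitrate dehydrogenase, from 51.4, 51.8 and 56.1 FPKM to 19.9, 16.9 and 17.6 (-1.47 ± 0.09, edgeR adjusted p = 4.15e-06). SDHA, the flavoprotein of succinate dehydrogenase, fell from 22.8, 23.1 and 23.6 to 15.5, 14.1 and 17.1 (-0.50 ± 0.09, adjusted p = 0.00228). Both changes are larger than that of any of the 9 enzymes that fell. After knockdown 2 of the list were higher and 3 lower (55.6% against 14.5% of all genes, median 0.08). SDHD, a membrane anchor of the same complex, rose from 27.0, 28.4 and 30.7 FPKM to 40.6, 41.4 and 41.1 (0.50 ± 0.07, adjusted p = 0.0029), while SDHA and IDH2 fell (-0.46 and -0.41, adjusted p 0.0159 and 0.0154). Between overexpression and knockdown 1 of the list was higher and 4 lower.

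Of the genes for pyruvate entry, which cover the pyruvate dehydrogenase complex, its kinases and phosphatases, the mitochondrial pyruvate carrier and pyruvate carboxylase, 13 of 14 were tested. In overexpression 6 were lower and 0 higher (46.2%, against 53.4% of all genes, of which 26.0% were lower; median -0.55), and none was higher at an unadjusted p below 0.05, with DESeq2 or with limma on log2(FPKM + 1). The largest falls were those of the pyruvate dehydrogenase kinases PDK2 (5.96, 5.65 and 6.12 FPKM against 1.89, 1.54 and 1.59, log2 fold change -1.74 ± 0.11, edgeR adjusted p = 5.3e-06) and PDK3 (1.74, 2.04 and 1.62 against 0.532, 0.619 and 0.600, -1.54 ± 0.12, adjusted p = 1.67e-05). These kinases inhibit the complex that makes acetyl-CoA for CS. After knockdown 4 were lower and 0 higher (30.8% against 14.5% of all genes, median -0.10). At an unadjusted p below 0.05 2 were higher, with limma 1 and with DESeq2 none. The falls included PDK1 from 1.78, 2.05 and 1.73 FPKM to 0.766, 0.806 and 0.551 (-1.40 ± 0.14, adjusted p = 0.000728) and DLAT, the acetyltransferase of the complex, from 28.1 ± 0.556 to 22.2 ± 0.538 (-0.35 ± 0.07, adjusted p = 0.0126). Overexpression against knockdown gave 1 higher and 6 lower.

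Enzymes and carriers that feed or drain the cycle were all tested (14 of 14). In overexpression 9 were lower and 2 higher (78.6%, against 53.4% of all genes, of which 26.0% were lower and 27.4% higher; median -0.49). IDH1, the cytosolic and peroxisomal isocitrate dehydrogenase, fell from 20.2, 18.4 and 20.1 FPKM to 6.38, 7.08 and 6.68 (-1.46 ± 0.10, edgeR adjusted p = 8.55e-06), and GOT1, the cytosolic aspartate aminotransferase, rose from 33.0, 32.5 and 33.4 to 71.5, 65.5 and 68.2 (1.13 ± 0.11, adjusted p = 4.49e-05). After knockdown 3 were lower and 0 higher (21.4% against 14.5% of all genes, median -0.28, and 1 higher at an unadjusted p below 0.05, with DESeq2 and with limma). ME2, the mitochondrial malic enzyme, fell from 4.83, 4.77 and 4.56 FPKM to 2.68, 2.64 and 2.27 (-0.92 ± 0.07, adjusted p = 0.000212), and GLUD1, glutamate dehydrogenase, from 40.0, 41.8 and 42.2 to 25.2, 25.3 and 24.3 (-0.74 ± 0.07, adjusted p = 0.000421). Against knockdown, 4 were higher and 6 lower in overexpression, with ACLY, the citrate-cleaving enzyme of the cytosol, at 24.6 ± 0.767 and 41.6 ± 1.06 FPKM (-0.67 ± 0.07, adjusted p = 8.95e-05).

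**Figure D5:**
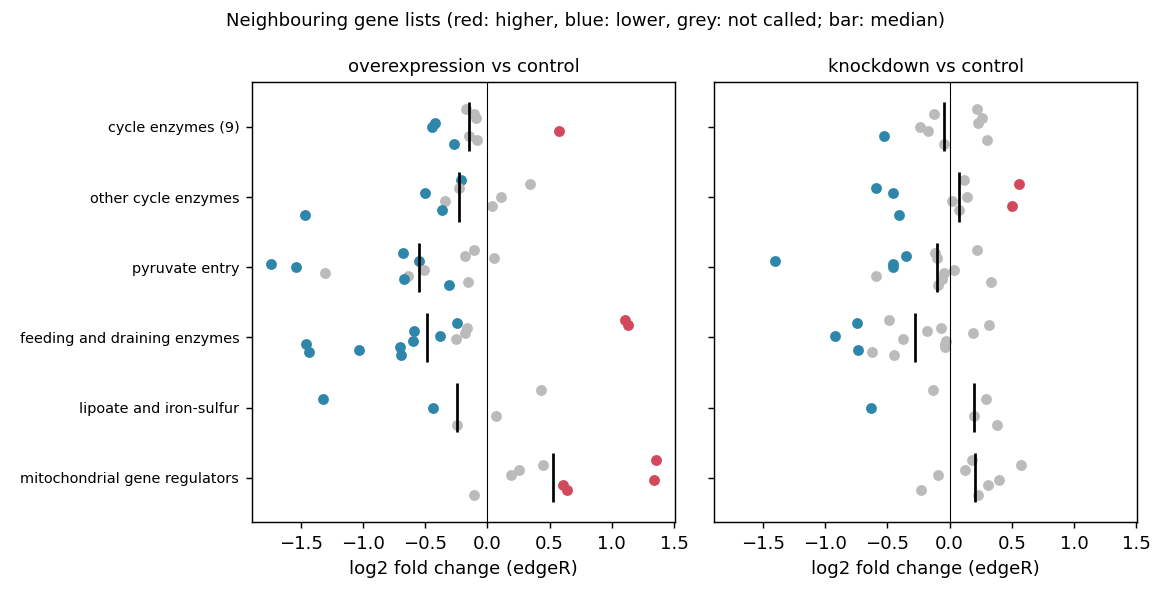
Log2 fold changes (edgeR without pairing) of the tested genes of each list in overexpression and in knockdown against control, red where higher and blue where lower at an adjusted p below 0.05, grey where not called, with a bar at the median. The medians lie at -0.55 for pyruvate entry and 0.53 for the regulators in overexpression.

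DLST works only with a lipoate group, which is made by iron-sulfur enzymes. Of 7 genes for lipoate and iron-sulfur clusters 5 were tested, with 2 lower in overexpression, 1 lower in knockdown and none higher with edgeR, DESeq2 or limma (40.0% and 20.0%, against 53.4% and 14.5% of all genes; medians -0.25 and 0.20). At an unadjusted p below 0.05, 1 was higher in knockdown. LIAS and IBA57 fell under the FPKM filter and were not tested. LIAS had 0.475, 0.561 and 0.567 FPKM in control and 0.716, 0.676 and 0.873 in overexpression, higher in every library. IBA57 had 0.900, 0.805 and 0.926 in control and 1.04, 0.779 and 0.846 in overexpression, which overlapped. LIPT2, the octanoyltransferase that opens lipoate synthesis, fell in overexpression from 1.98, 2.32 and 1.77 FPKM to 0.869, 0.712 and 0.692 (-1.32 ± 0.17, edgeR adjusted p = 0.000282). NFS1, the cysteine desulfurase, fell in overexpression (-0.44 ± 0.13, adjusted p = 0.0212) and in knockdown (-0.63 ± 0.13, adjusted p = 0.0168). Between overexpression and knockdown 2 were lower, LIPT2 and ISCA2 (-1.62 and -0.63, adjusted p 0.00011 and 0.0116).

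Of 10 regulators of nuclear-encoded mitochondrial genes 8 were tested, and in overexpression 4 were higher and 0 lower (50.0%, against 53.4% of all genes, of which 27.4% were higher; median 0.53). The counts were the same with DESeq2, with limma and at an unadjusted p below 0.05, and the other 4 were not called. PPRC1, a coactivator of the PGC-1 family, rose from 10.1, 10.5 and 9.69 FPKM to 23.7, 25.3 and 24.3 (1.35 ± 0.07, edgeR adjusted p = 1.82e-06). GABPB1, a subunit of the ETS factor GABP, rose from 2.71, 2.29 and 3.04 to 6.32, 6.24 and 6.75 (1.34 ± 0.13, adjusted p = 4.81e-05), while GABPA, the subunit that binds DNA, was not called (0.19 ± 0.26, adjusted p = 0.576). After knockdown none of the 8 was called with edgeR (4 higher at an unadjusted p below 0.05, 2 with DESeq2 and 0 with limma). In overexpression 3 were higher than in knockdown, among them TFB2M, a mitochondrial transcription factor (0.87 ± 0.11, adjusted p = 0.000261).

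The genes whose FPKM followed those of 2 enzymes most closely over the 9 libraries were found by the mean absolute difference of log2(FPKM + 1), centred on the control mean. For DLST these were IDE (0.0883), ZNF101 (0.103) and AP002851 (0.106). IDE, a metalloprotease that degrades insulin, had 5.38, 8.45 and 5.08 FPKM in control, 8.03, 10.5 and 9.16 in overexpression and 5.72, 5.18 and 4.79 in knockdown. All 3 genes shared with DLST the high value of control 2. The search covered all 9 libraries, control 2 included, so it selects for this likeness, which is no separate observation. For SUCLA2 they included ACTR6 (0.0463) and TCEAL9 (0.0498). ACTR6 had 3.75, 3.94 and 4.35 FPKM in control, 3.13, 3.65 and 3.41 in overexpression and 3.09, 3.09 and 2.78 in knockdown. It had the same order of groups as SUCLA2, which the search also selects for.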

How the data were processed

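RNA of 9 PANC1 libraries was sequenced after polyA selection with a dUTP protocol, per the labels' protocols. Per the submitters' processing notes the tools were StringTie 1.3.4d, HISAT2 2.0.4 and cutadapt 1.9. No source used here gives their settings, the genome build or the use of strand in counting. For every gene and library, the authors deposited a whole-number read count and an FPKM value, with an FPKM of 0 written as 0.0001. Of the gene identifiers, 58394 of 60612 were in GENCODE 29 (GRCh38), and 99.9% of these overlapped the deposited position.

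Counts were tested with edgeR 4.0.16 (R 4.3.3) in one model of 3 groups with 6 residual degrees of freedom, TMM scaling, quasi-likelihood tests and Benjamini-Hochberg adjustment over the 12545 genes that reached an FPKM of 1 in 3 or more libraries (common biological coefficient of variation 0.226). Standard errors are the size of the log2 fold change over the square root of F and are approximate. Levels and ratios use FPKM, with no test. Alternatives were DESeq2 1.42.0, limma 3.58.1 on log2(FPKM + 1), log2(FPKM + 0.1) and log2(TPM + 1), where TPM was computed from the deposited FPKM, and other scalings, filters, blocks and left-out libraries.

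The enzymes, the lists and the tests were chosen with earlier results of these data known. Named from the lists are up to 2 genes a list and comparison with the smallest adjusted p among those that passed, NUSAP1, and the 3 genes nearest in profile to the enzyme with the largest change against control. SUCLG1, GABPA, LIAS, IBA57, SSR4 and DLSTP1 were added. Not every gene this rule selects, or that overlaps an enzyme's locus, is reported here. Whether replicate numbers pair libraries was checked on deviations from group means. Between knockdown and control, same-numbered libraries correlated at 0.139, 0.132 and 0.117, and differently numbered ones at -0.0806 to -0.0468. Differently numbered libraries reached 0.141 between overexpression and control and 0.222 between overexpression and knockdown. Deviations from a mean of 3 libraries constrain one another, so these values cannot decide whether numbers pair libraries. The labels name no pairing. The main edgeR fit uses no pairing by number. Its knockdown values, list counts and figures are therefore unpaired, and fits with a replicate block are given as alternatives. The labels do not say that replicates were separate cultures, so p-values may measure technical spread only.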

Additional observations from a re-analysis of the deposited data

How the results depend on the processing

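Over the 3 comparisons, the fold changes of the 9 enzymes kept their direction and their side of the threshold in 172, 177 and 176 of the 206 values that the alternatives gave for overexpression against control, knockdown against control and overexpression against knockdown. In overexpression against control, 2 enzymes were called on TPM, without a filter on low values and in a fit of these 2 groups alone, and 2 to 5 with 1 library left out. In knockdown against control the number was 3 with library totals, with DESeq2 and with limma on log2(FPKM + 1) or log2(FPKM + 0.1), 4 on TPM, after quantile normalization and with a replicate block, 2 with a filter of FPKM 5, 0 with the block in a fit of these groups alone, and 1 to 2 with 1 library left out. Without the 4 libraries with hepatocyte transcripts, which leaves 1 control and 1 overexpression library assumed to vary like knockdown, 1, 0 and 2 enzymes were called, 10, 0 and 16 genes of the other lists, and 2419, 6 and 3539 genes in all. NUSAP1 in knockdown was then at -1.38 (adjusted p = 0.0842). All genes called numbered 4229 and 4069 in overexpression against control and against knockdown with a filter of FPKM 5. The filter sets how many genes are tested, so counts under other filters do not compare directly with the main fit. Knockdown against control gave 2767 with DESeq2, 1058 without a filter (7 of the other lists), and 962 to 1702 with 1 library left out (5 to 14 of the other lists).

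Directions turned on TPM, which raises the median of all genes, for IDH3A (0.040), IDH3B (0.064), SUCLA2 (0.0015) and FH (0.074) in overexpression and for IDH3A (0.0026), DLST (0.0025) and MDH2 (0.096) in knockdown. DLST in knockdown turned without control 2 (0.12, the range with 1 library left out being -0.33 to 0.12) and without the hepatocyte-transcript libraries (0.098). IDH3A between overexpression and knockdown turned with library totals (-0.063), limma on log2(FPKM + 1) (-0.061) or log2(FPKM + 0.1) (-0.069), quantile normalization (-0.073), no filter (-0.018) and without the hepatocyte-transcript libraries (-0.082), and without overexpression 3, knockdown 2 or knockdown 3 (range with 1 library left out -0.080 to 0.17). None of these reversed values was called, and the cause was not tested. With levels per kilobase of the principal transcript, chosen after seeing the data, ranks moved to 2 for CS, 9 for IDH3A, 5 for IDH3B, 3 for IDH3G, 4 for OGDH, 8 for SUCLA2 and 6 for FH. Counts per kilobase from lengths in the table were not run, as the table gives no lengths.

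Same-numbered overexpression and control libraries did not correlate (-0.0930 to 0.0017), nor did all overexpression and knockdown pairs (-0.0523 to 0.251). With a replicate block there, 4 and 8 enzymes were called, and 4 and 6 in fits of each pair of groups alone. In knockdown against control the block gave 4 and 0 enzymes, and 2132 and 1392 genes in all. With 3 libraries a group, the changes of IDH3A were smaller than their SE and could not be told from the spread. They were -0.11 ± 0.13 in overexpression and -0.12 ± 0.13 in knockdown against control, and 0.01 ± 0.13 between the 2.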

Other observations

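Control 2, in which DLST stood at the level of overexpression, had 239 of 12545 tested genes (1.91%) at 1.5 times or more above both other control libraries. DLST was the only one of the 9 enzymes to stand apart in this way, higher or lower, in any library. Of these 239 genes, 129 (54.0%) had all 3 overexpression libraries above both other controls, against 31.4% of all tested genes. For control 1 the same counts were 196 genes and 78 (39.8%, against 29.1%), and for control 3 they were 209 and 90 (43.1%, against 30.3%). The genes were picked for low values in both other controls, which by itself favours overexpression lying above those controls. These values were looked for after DLST was seen, and no test was made of them.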
